A study of Mus musculus with 8 samples.

Results

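The genes described here were Nfe2l2, which encodes the transcription factor NRF2, Keap1, which encodes its inhibitor, and 8 enzymes of antioxidant defence that NRF2 is known to drive, namely Gclm, Gclc, Txnrd1, Srxn1, Prdx1, Nqo1, Hmox1 and G6pdx. They were picked by name as the core of the pathway, without the glutathione transferases, and with results of these libraries already known. All 10 of the 50615 genes in the count table were expressed highly enough to be tested. Because of how they were chosen, their values are given as a description with no p-value for a single gene. Where genes are said to be called, they passed an adjusted p of 0.05 in a fit to all genes, which is likewise given as a description.

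Bone marrow-derived macrophages (BMDMs) of C57BL/6 mice were grown in M-CSF at 20 ng per ml for 6 days. Ncoa6-sufficient BMDMs carried the Ncoa6 fl/fl alleles alone and are labelled WT, and Ncoa6-KO BMDMs carried the same floxed alleles with LysM CRE, a Cre recombinase expressed from the lysozyme M locus of myeloid cells. Each genotype was left in medium alone or was treated with LPS (100 ng per ml, 4 h) followed by monosodium urate (MSU) crystals (200 µg per ml, 2 h), with 2 libraries in each of the 4 groups. The ages of the mice were not given in the sources used here, and LPS without MSU was not analysed here, so the part of each agent cannot be told apart. NCOA6 is a coactivator that nuclear receptors and other transcription factors recruit, and the design asks what its loss changes in resting and in activated macrophages.

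NRF2 is made continuously and is normally held by KEAP1, an adaptor that presents it to a CUL3 ubiquitin ligase for destruction. Oxidants and electrophiles modify cysteines of KEAP1, and NRF2 then accumulates, pairs with a small MAF protein and binds antioxidant response elements near genes for glutathione synthesis, thioredoxin recycling, heme breakdown and NADPH supply. NRF2 protein is therefore set largely after transcription, and the libraries measured mRNA only. In macrophages the pathway is known for protection from oxidants made during activation and for restraint of inflammatory cytokine genes.

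The libraries held between 25281955 and 33673552 expected counts. Ncoa6 was at 1515 and 1405 normalized counts (expected counts scaled for depth and composition by TMM) in the Ncoa6-sufficient libraries and at 784 and 622 in the Ncoa6-KO libraries with medium alone, and at 1297 and 1173 against 563 and 526 after LPS + MSU. Its log2 fold change was -1.05 and -1.18, so the transcript was reduced but still counted. The floxed segment is a single exon, and reads from the rest of the gene were counted too. All 8 macrophage markers were measured in every group, with summed levels of 196087 to 198845 normalized counts in Ncoa6-sufficient and 154304 to 179163 in Ncoa6-KO BMDMs in medium alone. The sums were 282461 to 287299 and 247886 to 264931 after LPS + MSU. Markers of T and NK cells summed to at most 4.16 normalized counts in any library, and 3 of the 6 were at 0 in every library. In bulk RNA, fewer cells of a type and less RNA per cell cannot be told apart.

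Promoters of 8 of the 10 genes were matched in RefSeq (GRCm38.p6), and the 250 bases before each start were searched on both strands for the core of the antioxidant response element, TGACNNNGC, and for its variant TGAGNNNGC. Either pattern was found in 6 of 10 promoters (60.0%; Txnrd1 has 3), against 23.0% of all 32851 promoters in the table. Among the wider lists described further on, it was found in 9 of 16 promoters of NRF2 partners and regulators (56.2%), 5 of 26 of other NRF2 targets (19.2%) and 2 of 20 of other antioxidant enzymes. The 3 promoters below belong to the genes called between genotypes after LPS + MSU (adjusted p below 0.05 over all genes) that have an entry, and capitals mark the match, read on either strand.
Gclm, chr3:122245307-122245556, + strand: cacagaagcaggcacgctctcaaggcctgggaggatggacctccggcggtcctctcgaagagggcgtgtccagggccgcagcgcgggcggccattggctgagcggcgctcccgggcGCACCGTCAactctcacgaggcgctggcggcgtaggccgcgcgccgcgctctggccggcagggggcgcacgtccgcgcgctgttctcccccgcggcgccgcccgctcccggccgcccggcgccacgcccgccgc
Srxn1, chr2:152105274-152105523, + strand: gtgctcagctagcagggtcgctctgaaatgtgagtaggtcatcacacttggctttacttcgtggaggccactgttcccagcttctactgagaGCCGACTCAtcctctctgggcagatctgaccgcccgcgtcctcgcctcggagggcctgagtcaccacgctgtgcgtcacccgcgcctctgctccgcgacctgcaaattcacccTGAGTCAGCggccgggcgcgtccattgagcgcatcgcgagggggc
Prdx1, chr4:116685349-116685598, + strand: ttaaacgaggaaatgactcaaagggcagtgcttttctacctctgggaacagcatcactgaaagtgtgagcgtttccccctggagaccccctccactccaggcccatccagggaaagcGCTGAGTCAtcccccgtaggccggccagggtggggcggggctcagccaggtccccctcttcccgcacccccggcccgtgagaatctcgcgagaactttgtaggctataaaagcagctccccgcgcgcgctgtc
The match in Gclm lay 134 to 126 bases before the start and that in Prdx1 133 to 125 bases before it. Srxn1 had a match at 158 to 150 and another at 45 to 37 bases before the start. The match in Prdx1 and the nearer one in Srxn1 also contain TGACTCA, the AP-1 site, which was found in 4.46% of all promoters, so the letters alone do not tell these apart. The match was TGACTCCGC in Nfe2l2, GCTCAGTCA in G6pdx and GCTTTGTCA in 1 of the Txnrd1 promoters. None was found in the windows of Keap1 and Nqo1. A match is a description of the sequence and no evidence that NRF2 was bound there.

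**Figure D1:**
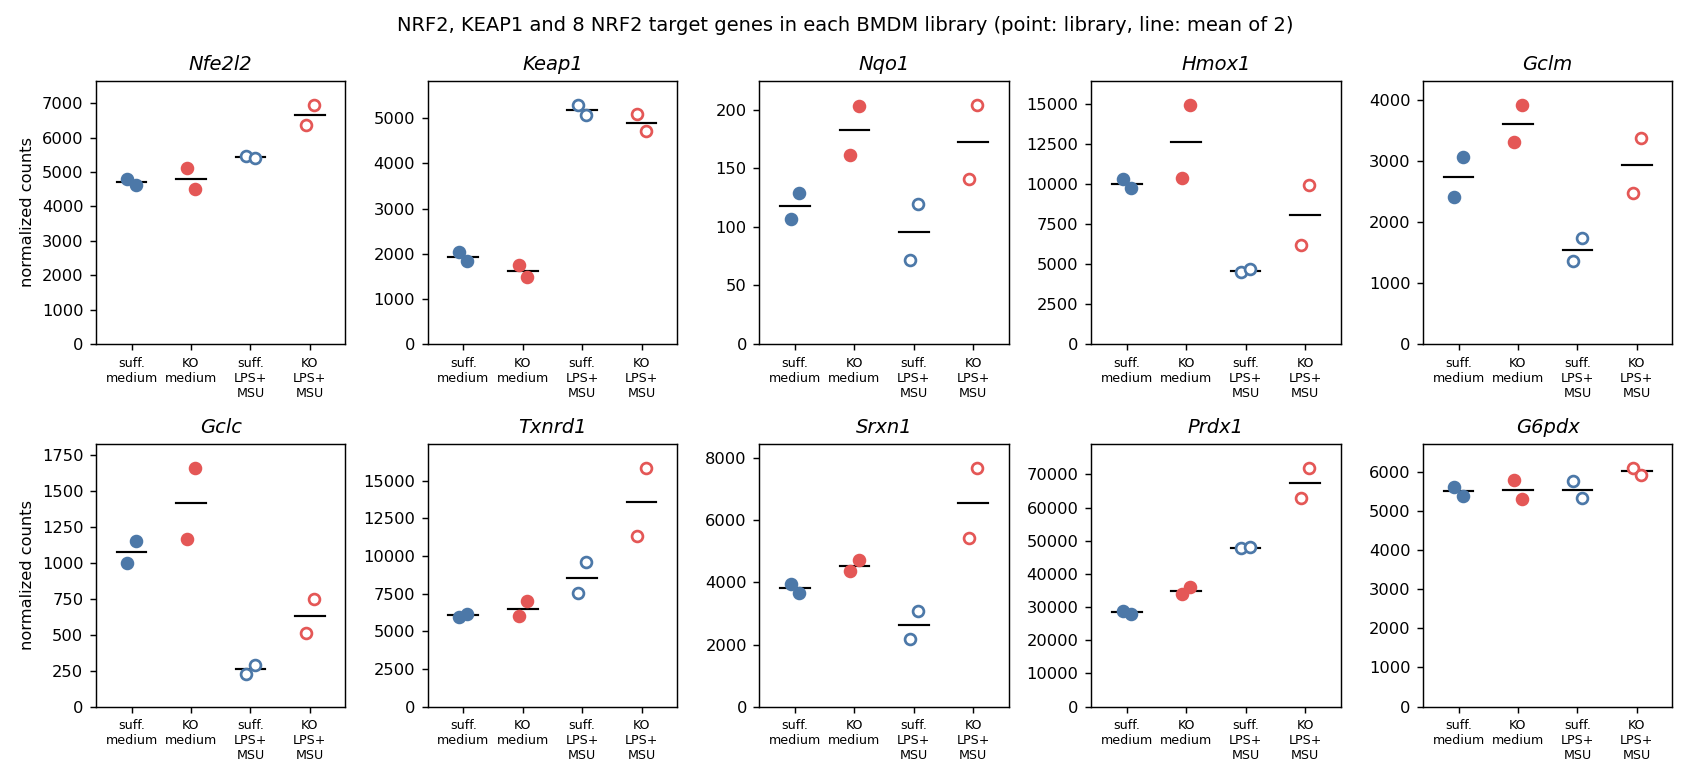
Normalized counts (y axis, from 0, a separate scale for each gene) of the 10 genes in the 8 BMDM libraries, grouped by genotype and stimulus (x axis; suff., Ncoa6-sufficient). Each point is 1 library and each line the mean of 2; after LPS + MSU the Ncoa6-KO libraries lie above both Ncoa6-sufficient libraries in 9 of the 10 panels, Keap1 being the exception.

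Levels between genes were compared per kilobase of exon, in Ncoa6-sufficient BMDMs in medium alone. Prdx1 was the highest at 9328 normalized counts per kilobase, followed by Hmox1 at 5717, G6pdx at 1786, Srxn1 at 1352, Nfe2l2 at 1243 and Txnrd1 at 855. Gclm at 435 and Keap1 at 412 came next and their libraries overlapped. Gclc was at 285, and Nqo1 was the lowest at 75.9. In that order every other pair of neighbours was separated in both libraries. Nqo1 thus rests on the fewest reads.

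The regulators of the pathway behaved differently from each other. Nfe2l2 (chr2:75675513-75704641, - strand) was at 4806 and 4631 normalized counts in Ncoa6-sufficient and at 5113 and 4506 in Ncoa6-KO BMDMs in medium alone. After LPS + MSU it was at 5463 and 5418 in Ncoa6-sufficient and at 6368 and 6948 in Ncoa6-KO BMDMs. The genotypes overlapped with medium alone and did not overlap after LPS + MSU, where the log2 fold change of Ncoa6-KO against Ncoa6-sufficient was 0.29 (SE 0.0992, n = 2 per group).

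Keap1 (chr9:21229730-21239361, - strand) was at 2041 and 1829 normalized counts in Ncoa6-sufficient and at 1746 and 1494 in Ncoa6-KO BMDMs in medium alone. After LPS + MSU it was at 5298 and 5076 and at 5086 and 4726. Keap1 was therefore more than doubled by the stimulus in either genotype, with log2 fold changes of 1.42 (SE 0.106) and 1.60 (SE 0.107). It was the 1 gene of the 10 with a lower mean in Ncoa6-KO BMDMs under both conditions, at -0.26 and -0.08, and after LPS + MSU the genotypes overlapped. An antisense gene, Gm16754, overlaps Keap1 and held 2.99% as many counts. The library kit keeps the strand, but whether the counting used it was not stated.

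Glutathione synthesis begins with glutamate-cysteine ligase, whose catalytic subunit is encoded by Gclc and whose modifier subunit by Gclm. Gclc (chr9:77754535-77794485, + strand) was at 995 and 1152 normalized counts in Ncoa6-sufficient and at 1164 and 1661 in Ncoa6-KO BMDMs in medium alone. After LPS + MSU it was at 230 and 286 in Ncoa6-sufficient and at 510 and 751 in Ncoa6-KO BMDMs. Both Ncoa6-KO libraries were above both Ncoa6-sufficient libraries in each condition, by a log2 fold change of 0.39 (SE 0.191) with medium alone and 1.29 (SE 0.223, 2.44-fold) after LPS + MSU. Gclc also had the largest response of the 10 genes to LPS + MSU in Ncoa6-sufficient BMDMs, at -2.05 (SE 0.217), against -1.16 (SE 0.200) in Ncoa6-KO BMDMs, where Keap1 had the largest.

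Gclm (chr3:122245557-122270732, + strand), whose promoter is printed above, was at 2402 and 3070 normalized counts in Ncoa6-sufficient and at 3308 and 3918 in Ncoa6-KO BMDMs in medium alone. After LPS + MSU the values were 1358 and 1738 against 2482 and 3382. The genotypes did not overlap in either condition, and the log2 fold change was 0.40 (SE 0.172) and 0.92 (SE 0.177, 1.89-fold). The log2 fold change with the stimulus was -0.82 (SE 0.176) in Ncoa6-sufficient BMDMs and -0.30 (SE 0.173) in Ncoa6-KO BMDMs, where the conditions overlapped. The catalytic and modifier subunits thus shared the direction of the genotype difference, and that of the stimulus difference in Ncoa6-sufficient BMDMs. Gm6061, a transcribed processed pseudogene, overlaps Gclm on the same strand. The expected counts of Gclm were fractional in all 8 libraries, such as 3201.18 in the first Ncoa6-sufficient medium library, so some of its reads were shared out.

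Thioredoxin and peroxiredoxin enzymes remove peroxides and are recycled with NADPH. Srxn1 (chr2:152105516-152111376, + strand) encodes sulfiredoxin, which repairs overoxidized peroxiredoxins. It was at 3961 and 3665 normalized counts in Ncoa6-sufficient and at 4360 and 4728 in Ncoa6-KO BMDMs in medium alone, and at 2175 and 3086 against 5447 and 7698 after LPS + MSU. Srxn1 was the 1 gene called in opposite directions with the stimulus, at -0.54 (SE 0.178) in Ncoa6-sufficient and 0.53 (SE 0.177) in Ncoa6-KO BMDMs. It had the largest genotype difference of the 10 after LPS + MSU, with a log2 fold change of 1.32 (SE 0.181, 2.50-fold), against 0.25 (SE 0.176) with medium alone.

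Txnrd1 (chr10:82833951-82897712, + strand) encodes cytosolic thioredoxin reductase. It was at 5944 and 6178 normalized counts in Ncoa6-sufficient and at 6014 and 6994 in Ncoa6-KO BMDMs in medium alone, where the genotypes overlapped. After LPS + MSU it was at 7520 and 9611 against 11333 and 15859, which did not overlap. The stimulus response was 0.50 (SE 0.165) in Ncoa6-sufficient and 1.06 (SE 0.166) in Ncoa6-KO BMDMs on the log2 scale, and the genotype difference after LPS + MSU was 0.67 (SE 0.165). Eid3 lies within Txnrd1 on the same strand, which can blur reads in the shared part, though the expected counts of Txnrd1 were whole numbers in all 8 libraries.

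Prdx1 (chr4:116685544-116700822, + strand) encodes a peroxiredoxin of the cytosol that reduces hydrogen peroxide, and its level per kilobase was the highest of the 10. It was at 28782 and 27986 normalized counts in Ncoa6-sufficient and at 33810 and 36120 in Ncoa6-KO BMDMs in medium alone. After LPS + MSU it was at 47754 and 48053 against 62946 and 72045. All 4 Ncoa6-KO libraries were above the Ncoa6-sufficient libraries of the same condition, with log2 fold changes of 0.30 (SE 0.116) and 0.49 (SE 0.116, 1.41-fold). Reads counted to 3 processed pseudogenes of Prdx1 came to 0.0725% of its own counts.

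Hmox1 and Nqo1 are the targets most often used as a readout of NRF2. Hmox1 (chr8:75093621-75100589, + strand) encodes heme oxygenase 1, which degrades heme and which BACH1 represses. It was at 10299 and 9721 normalized counts in Ncoa6-sufficient and at 10361 and 14944 in Ncoa6-KO BMDMs in medium alone. After LPS + MSU it was at 4483 and 4662 against 6161 and 9959. The genotypes did not overlap in either condition, but with medium alone the nearest libraries, 10299 and 10361, differed by less than the replicates did. The log2 fold change was 0.34 (SE 0.208) with medium alone and 0.82 (SE 0.211) after LPS + MSU.

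Nqo1 (chr8:107388225-107403206, - strand) encodes a quinone reductase. It was at 107 and 129 normalized counts in Ncoa6-sufficient and at 161 and 204 in Ncoa6-KO BMDMs in medium alone, and at 72.0 and 120 against 141 and 204 after LPS + MSU. Nqo1 had the largest genotype difference of the 10 with medium alone, at 0.63 (SE 0.242), and a like one after LPS + MSU, at 0.84 (SE 0.269). Its errors were the widest, and LPS + MSU did not separate the libraries of either genotype from medium alone.

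G6pdx (chrX:74409483-74429194, - strand) encodes glucose-6-phosphate dehydrogenase, which starts the pentose phosphate pathway and supplies NADPH. It was at 5618 and 5381 normalized counts in Ncoa6-sufficient and at 5781 and 5302 in Ncoa6-KO BMDMs in medium alone, and at 5751 and 5321 against 6102 and 5913 after LPS + MSU. G6pdx varied least among the 10 genes, and its log2 fold changes ran from 0.01 to 0.12 in the 4 comparisons. Its SE of 0.0947 to 0.0953 was near or above most of these values. Ikbkg overlaps G6pdx on the opposite strand.

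**Figure D2:**
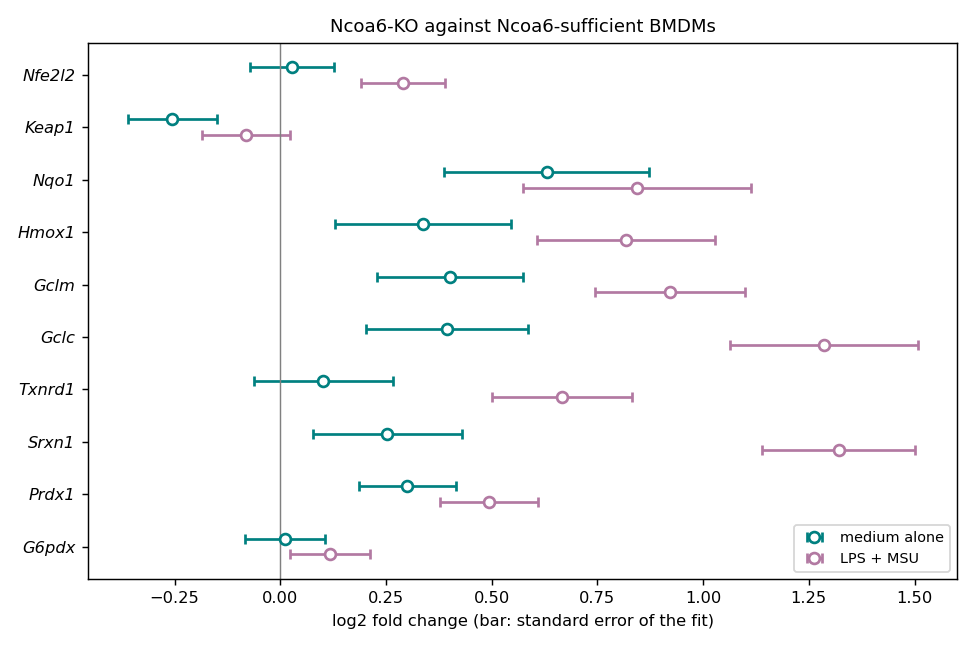
Log2 fold change (x axis) of Ncoa6-KO against Ncoa6-sufficient BMDMs for each gene (y axis), with medium alone and after LPS + MSU. Points are estimates of the fit to all 8 libraries and bars their standard errors; the estimate after LPS + MSU lies to the right of that with medium alone for all 10 genes, from -0.08 for Keap1 to 1.32 for Srxn1.

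Read across the 10 genes, the genotype difference with medium alone was small. The log2 fold change was positive for 9 of 10, with a median of 0.28 against -0.03 over all tested genes, and both Ncoa6-KO libraries were above both Ncoa6-sufficient libraries for 6 genes, where 18.6% of all tested genes showed this. Both were below for 1, Keap1, against 24.5% of all tested genes. The edgeR quasi-likelihood test called 0 of the 10 at an adjusted p below 0.05, where it called 1.88% of all 17625 tested genes. At an unadjusted p below 0.05 it had 4 of the 10, against 12.8% of all genes. DESeq2 called 1 of the 10, Prdx1, and 496 of all genes, and limma-voom 0 of the 10 and 397 of all genes. Since these genes were chosen with this contrast known, nothing is read from the counts.

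After LPS + MSU the median log2 fold change of Ncoa6-KO against Ncoa6-sufficient was 0.74 over the 10 genes and 0.00 over all tested genes. Gclm, Gclc, Srxn1 and Prdx1, 4 of 10, were called and all 4 were higher in Ncoa6-KO BMDMs, where 1.96% of all tested genes were called higher and 3.59% in either direction. The libraries did not overlap for 9 genes, all higher, against 24.7% of all tested genes. Again this contrast was known when the genes were chosen, and the shares are given for scale. Without the first Ncoa6-sufficient LPS + MSU library the median was 0.50, and without the second Ncoa6-KO LPS + MSU library it was 0.41. Calls also depended on these libraries, but such fits leave 1 library in a group and their share of all genes is not given.

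In Ncoa6-KO BMDMs after LPS + MSU, 8 of the 10 genes were higher in the second library, and the median ratio of the higher to the lower library was 1.38, with the largest, 1.62, for Hmox1. In the Ncoa6-sufficient LPS + MSU group 7 of the 10 were higher in the second library, the median ratio was 1.16 and the largest was 1.66, for Nqo1. In Ncoa6-KO BMDMs in medium alone it was 7 of 10, with a median ratio of 1.17 and the largest, 1.44, again for Hmox1. In Ncoa6-sufficient BMDMs in medium alone it was 4 of 10, with 1.07 and 1.28 (Gclm). Nothing is read from these counts, as the shares over all genes are not given. The Ncoa6-KO libraries after LPS + MSU also differed in 6 stromal cell markers. Their summed level was 346 in the first and 831 in the second, against 955 in the first and 908 in the second Ncoa6-sufficient library. With medium alone it was 140 and 457 in Ncoa6-KO and 426 and 385 in Ncoa6-sufficient BMDMs. The part of these differences between libraries, and of the lower macrophage marker sums in Ncoa6-KO BMDMs, in the values above was not tested.

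LPS + MSU raised some genes of the pathway and lowered others. In Ncoa6-sufficient BMDMs 7 of 10 were called, where the test called 55.2% of all tested genes. Keap1, Txnrd1 and Prdx1 were higher (24.7% of all tested genes) and Hmox1, Gclm, Gclc and Srxn1 lower (30.5%), while Nfe2l2 (0.21), Nqo1 (-0.29) and G6pdx (0.01) were not called. In Ncoa6-KO BMDMs 7 of 10 were called, against 53.1% of all tested genes (25.2% higher, 27.9% lower). Nfe2l2 (0.47), Keap1, Txnrd1, Srxn1 and Prdx1 (0.95) were higher, Hmox1 (-0.65) and Gclc (-1.16) lower, and Nqo1 (-0.08), Gclm (-0.30) and G6pdx (0.12) were not called. Nothing is read from these counts, since the contrasts were known when the genes were chosen. The opposite signs of Srxn1 stayed without any single library, from -0.76 to -0.26 in Ncoa6-sufficient and from 0.27 to 0.75 in Ncoa6-KO BMDMs. Its call in Ncoa6-sufficient BMDMs was lost without their first LPS + MSU library (-0.26) or without either of their medium libraries, and its call in Ncoa6-KO BMDMs was lost without their second LPS + MSU library (0.27) or their first medium library.

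The stimulus comparison depends on scaling. TMM factors were 0.766 to 0.829 after LPS + MSU and 1.23 to 1.29 with medium alone, and the median change of genes averaging 50 or more normalized counts was -0.10 for Ncoa6-sufficient and -0.05 for Ncoa6-KO BMDMs, against 0.01 and 0.00 with the size factors of DESeq2. Relative to the TMM medians, the changes in Ncoa6-sufficient BMDMs were 1.52 for Keap1, 0.60 for Txnrd1, 0.85 for Prdx1, -0.44 for Srxn1, -0.72 for Gclm, -1.03 for Hmox1 and -1.96 for Gclc. In Ncoa6-KO BMDMs they were 1.65 for Keap1, 1.12 for Txnrd1, 1.00 for Prdx1, 0.59 for Srxn1, -0.25 for Gclm, -0.60 for Hmox1 and -1.11 for Gclc. No gene changed direction with the other size factors, but the call of Srxn1 in Ncoa6-sufficient BMDMs was lost and Nfe2l2 was called there.

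**Figure D3:**
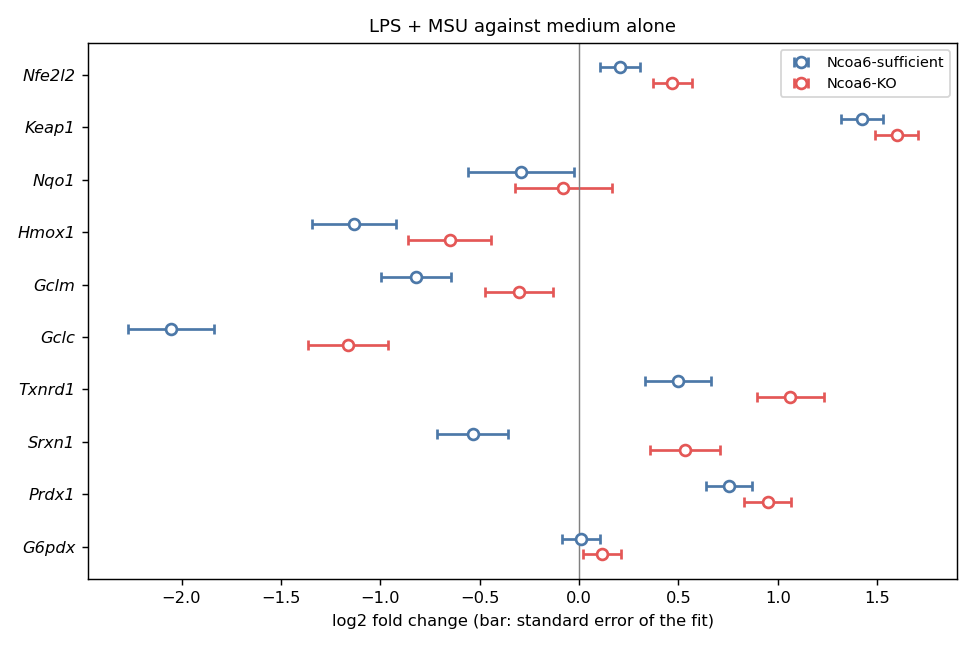
Log2 fold change (x axis) of LPS + MSU against medium alone for each gene (y axis) in Ncoa6-sufficient and Ncoa6-KO BMDMs. Points are estimates of the fit and bars their standard errors; Ncoa6-KO lies to the right of Ncoa6-sufficient for all 10 genes, and Srxn1 crosses from -0.54 to 0.53.

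The stimulus response was compared between genotypes with an interaction term, the log2 difference of the responses. It was positive for all 10 genes, from 0.11 for G6pdx to 1.07 (SE 0.251) for Srxn1, with 0.89 (SE 0.293) for Gclc, 0.56 (SE 0.233) for Txnrd1 and 0.52 (SE 0.246) for Gclm. For Nqo1 it was 0.21 (SE 0.362), and without single libraries it ran from -0.16 to 0.58. The median was 0.37, against 0.06 over all tested genes. The edgeR test called 0 of the 10 and 0 of all 17625 tested genes. At an unadjusted p below 0.05 there were 3 of the 10, against 5.93% of all genes. DESeq2 called 1 of the 10, Srxn1, and 43 of all genes, and limma-voom 0 of either. With no filter on low counts edgeR called 2 of the 10, Gclc and Srxn1, and 269 of all genes. A replicate block across all groups gave the same 2 and 86 of all genes. With a replicate block within each genotype edgeR called 5 of the 10, Hmox1, Gclm, Gclc, Txnrd1 and Srxn1, and 444 of all genes. The interaction uses the same 8 libraries as the other comparisons, so its sign follows from the pair of genotype differences already given.

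The genes most like a member in pattern were found by Pearson's r over the 8 libraries among 11219 genes averaging 50 or more normalized counts. For Nfe2l2 they were Arhgap26 (r = 0.981), Sri (0.977) and Rps6kc1 (0.971), for Nqo1 Abca8b (0.970), Uckl1 (0.965) and L1cam (0.965), and for Hmox1 Clpp (0.992), Ncs1 (0.991) and Eif2d (0.989). The libraries share their 4 groups, so these values describe likeness of pattern alone.

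Beyond the 10 genes, 51 further genes of the pathway were measured in 3 lists, and 50 were expressed highly enough to test. The lists were 11 partners and regulators of NRF2, 24 other NRF2 targets and 16 other antioxidant enzymes. These lists too were chosen with earlier results of these data known. Their counts and adjusted p-values, here and below, are therefore a description and no independent support. With medium alone, 3 of the 50 were called, all higher in Ncoa6-KO BMDMs, where 0.573% of all tested genes were called higher. After LPS + MSU 8 were called, all higher, against 1.96% of all tested genes, and the median log2 fold change was 0.14. That none was lower did not hold under every alternative. DESeq2 called 7 higher and 2 lower, where 346 of its 849 calls over all genes were higher. With no filter on low counts edgeR called 12 higher and 1 lower, where 807 of its 1611 calls over all genes were higher. The 8 were Mafg and Sqstm1 among the partners, Me1, Ephx1, Aox1, Ptgr1 and Slc40a1 among the targets, and Cat among the other enzymes. The number called also depended on single libraries, but such fits leave 1 library in a group and their share of all genes is not given.

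Among called genes averaging 50 or more normalized counts, the largest of these differences was in Ephx1, which encodes microsomal epoxide hydrolase. It was at 903 and 919 normalized counts in Ncoa6-sufficient and at 2062 and 1968 in Ncoa6-KO BMDMs in medium alone, and at 536 and 618 against 1768 and 1857 after LPS + MSU. The log2 fold change was 1.15 (SE 0.0928, edgeR adjusted p = 0.000607) and 1.65 (SE 0.0983, edgeR adjusted p = 4.02e-05), and no library of 1 genotype reached the other. Me1, which encodes malic enzyme and yields NADPH, was at 507 and 591 against 746 and 895 normalized counts with medium alone and at 486 and 534 against 822 and 953 after LPS + MSU. Its edgeR adjusted p was 0.0468 with medium alone, which was lost when only the 4 libraries compared were fitted (0.0629), and 0.0112 after LPS + MSU.

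Sqstm1 encodes p62, a KEAP1-binding autophagy receptor that is both a regulator and a target of NRF2. It was at 35842 and 45912 normalized counts in Ncoa6-sufficient and at 80802 and 103486 in Ncoa6-KO BMDMs after LPS + MSU, a log2 fold change of 1.17 (SE 0.161, edgeR adjusted p = 0.00518). With medium alone it was at 16045 and 15267 against 19560 and 16781, a difference of 0.21 that did not pass the test (edgeR adjusted p = 0.661). Slc40a1, which encodes the iron exporter ferroportin, was at 669 and 680 against 1138 and 1595 after LPS + MSU (log2 fold change 1.02, SE 0.163, edgeR adjusted p = 0.0103). The rule that named Ephx1, Me1, Sqstm1 and Slc40a1 required libraries that did not overlap, so their separation where called is no further result.

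The other 4 called genes were named after their values were seen. Mafg, a small MAF partner of NRF2, was at 1685 and 1940 against 2369 and 3051 normalized counts after LPS + MSU (log2 fold change 0.58, edgeR adjusted p = 0.0316). Cat, which encodes the peroxide-degrading enzyme catalase, was at 6151 and 6602 against 9325 and 10289 (0.62, edgeR adjusted p = 0.0142). Ptgr1, which encodes prostaglandin reductase 1, was at 1085 and 1277 against 1746 and 1922 (0.64, edgeR adjusted p = 0.0104). Aox1, which encodes an aldehyde oxidase, was low at 12.5 and 12.4 against 28.8 and 53.2 (1.70, edgeR adjusted p = 0.0486), and with medium alone it was at 21.0 and 25.8 against 68.1 and 58.8 (1.44, edgeR adjusted p = 0.0492). The libraries of the genotypes did not overlap for any of these genes. Slc7a11 was at 1567 and 2340 against 2345 and 4957 after LPS + MSU, a log2 fold change of 0.90 that did not pass the test (edgeR adjusted p = 0.134).

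**Figure D4:**
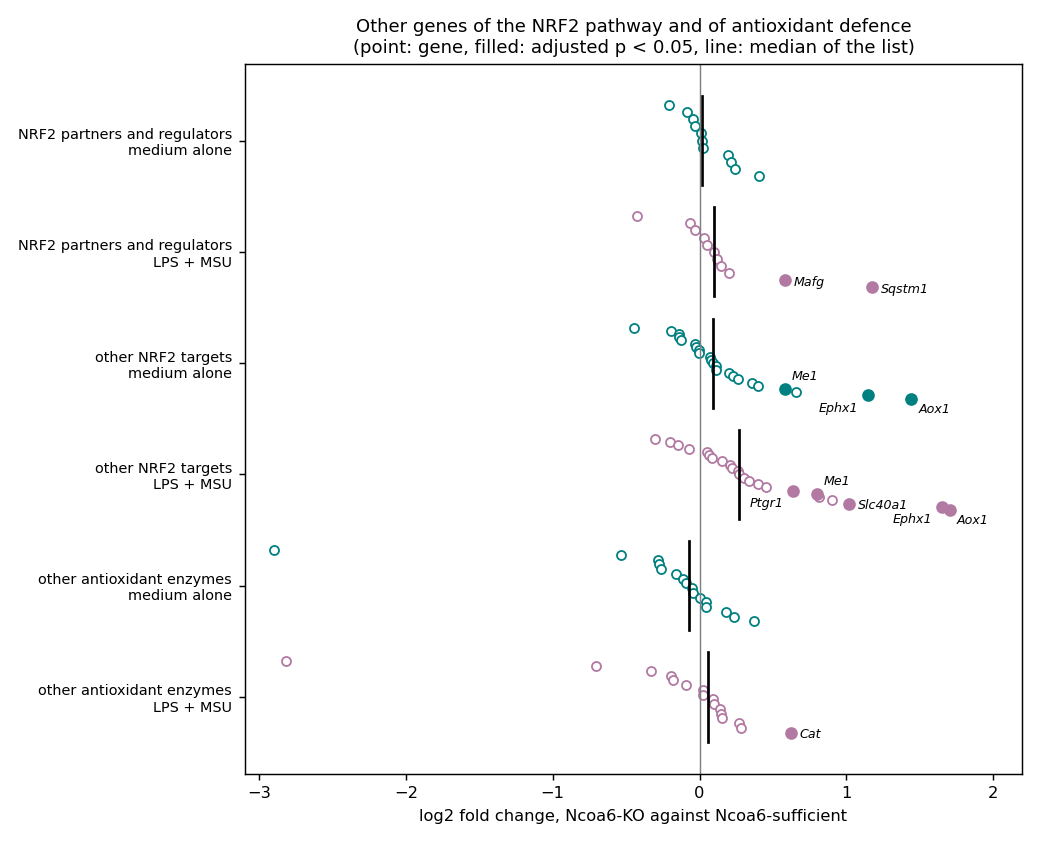
Log2 fold change (x axis) of Ncoa6-KO against Ncoa6-sufficient BMDMs for the 50 tested genes of the 3 wider lists, by list and condition (y axis). Filled, named points had an edgeR adjusted p below 0.05 and black lines are list medians; the filled points all lie to the right of 0, and the points far to the left are Sod3 in either condition, which had a mean of 1.77 normalized counts.

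LPS + MSU changed many of the wider genes. In Ncoa6-sufficient BMDMs 38 of 50 were called, 21 higher and 17 lower, and in Ncoa6-KO BMDMs 31, 22 higher and 9 lower, beside 55.2% and 53.1% of all tested genes. Among called genes averaging 50 or more normalized counts, the strongest rises were in Slc7a11, the cystine transporter that feeds glutathione synthesis (3.70 for Ncoa6-sufficient and 3.94 for Ncoa6-KO BMDMs on the log2 scale), and Sod2, mitochondrial superoxide dismutase (3.57 and 3.55). Prdx5, another peroxiredoxin, rose by 2.18 and 2.12, Maff, a small MAF partner of NRF2, by 2.27 and 1.84, and Sqstm1 by 1.38 and 2.34. Slc7a11 rose while Gclc, which acts on the imported cystine after its reduction, fell in the same libraries. Among the same genes the strongest fall was in Slc40a1 (-3.88 for Ncoa6-sufficient and -3.12 for Ncoa6-KO BMDMs), followed by Cbr3 (-1.87 and -1.42), Idh1 (-1.28 and -1.14) and Cbr1 (-1.11 and -0.80), which encode a pair of carbonyl reductases and an NADPH-forming isocitrate dehydrogenase. All named values here had an edgeR adjusted p of at most 0.000386. The edgeR test called 0 of the 50 in the interaction, where 4 had an unadjusted p below 0.05 and DESeq2 called 1.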

How the data were processed

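The authors aligned paired-end reads (read length 100) from stranded mRNA libraries and deposited 1 table of expected counts per gene for GRCm38 (annotation release 101), made with STAR 2.7.3a and RSEM 1.3.3 per the submitters' processing notes. Expected counts were rounded, and genes with a sum of at least 10 over the 8 libraries (17625) were tested with edgeR 4.0.16 (quasi-likelihood, TMM, 4 groups in 1 fit, 4 residual degrees of freedom) under R 4.3.3, with Benjamini-Hochberg adjustment over all tested genes and calls at 0.05. Normalized counts are counts per 29332189 reads of TMM-corrected depth, and each SE was derived from the test statistic. Scripts were tested on simulated data. DESeq2 1.42.0, limma 3.58.1 (voom), other filters and scalings, a replicate block and leaving out each library were alternatives. RSEM shares ambiguous reads among genes, which can blur copies and overlapping genes. Among the members, Nqo1 had the fewest counts.

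The members and lists were chosen with earlier results of these data known. Named genes were the 10 members, Ncoa6, the 3 genes most like Nfe2l2, Nqo1 and Hmox1, and up to 4 wider genes called in each direction by size in each comparison, averaging 50 or more normalized counts with no overlap of libraries. Mafg, Cat, Ptgr1, Aox1, Sod3 and Taldo1 were named after their values were seen. The BMDMs came from different mice per the methods, with n = 2 per group, and the smallest exact permutation p (two-sided) for such groups is 0.333. Gene positions and exon lengths are from GENCODE on GRCm38, and promoters from RefSeq. Other marker lists summed to at most 991 (neutrophil), 50.3 (B cell), 247 (dendritic cell) and 21.8 (erythroid) normalized counts in a library.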

Additional observations from a re-analysis of the deposited data

Results flagged for a closer look

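The direction of Srxn1 with LPS + MSU was opposite between the genotypes, at -0.54 for Ncoa6-sufficient and 0.53 for Ncoa6-KO BMDMs on the log2 scale. The difference of the responses was 1.07 (SE 0.251) and was not called by the edgeR test as described. That difference was called by DESeq2, and by edgeR with no filter on low counts or with either replicate block. It was not called by limma-voom, nor by edgeR with DESeq2 size factors or with filterByExpr.

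Taldo1, which encodes transaldolase of the pentose phosphate pathway, was lower in both Ncoa6-KO libraries with medium alone, at -0.14, and higher in both after LPS + MSU, at 0.05. Neither value passed the test over all genes, and the edgeR adjusted p of the difference of the genotype effects was 0.919.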

How the results depend on the processing

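No called value changed sign under the alternatives run. With medium alone, the count of members called between genotypes (0) became 1 with DESeq2, 3 with no filter on low counts and 3 with a replicate block across all groups, and was 0 without any single library. The wider count (3) became 1 with filterByExpr, 8 with no filter (6 higher, 2 lower), 7 with the block (6 and 1) and 1 to 3 without single libraries; it was 1 without either Ncoa6-sufficient LPS + MSU library, either Ncoa6-sufficient medium library or the second Ncoa6-KO medium library. After LPS + MSU, the members called (4) became 7 with no filter, 7 with the block, 2 at an absolute log2 fold change over 1, and 0 to 6 without single libraries. The wider count (8, all higher) became 13 (12 higher, 1 lower), 15 (13 and 2), 4 and 1 to 10; DESeq2 called 7 higher and 2 lower, and leaving out either Ncoa6-KO medium library gave 7 and 1. Over all genes these counts were 331 and 632, 496 and 849 with DESeq2, and 1152 and 1611 with no filter. They were 1023 and 1532 with the block, and 347 after LPS + MSU when only the 4 libraries compared were fitted. The interaction had 0, and 43 with DESeq2, 269 with no filter, and 86 and 444 with the block across groups and within each genotype. The split after LPS + MSU was 345 higher of 632 with TMM and 295 of 638 with DESeq2 size factors. For LPS + MSU against medium, a log2 fold change over 1 left 3 members and 12 wider genes in either genotype. The share of all tested genes over that limit is not given here, so nothing is read from the counts at it. For the interaction (0 and 0), DESeq2 called 1 member and 1 wider gene, no filter 2 and 3, the block across groups 2 and 1, and a replicate block within each genotype 5 and 4. The members were Gclc and Srxn1 with no filter or the block across groups, and Hmox1, Gclm, Gclc, Txnrd1 and Srxn1 with the block within each genotype. Same-numbered libraries deviated together with correlations of 0.042 to 0.353, 1 of 6 below 0.1. The highest were between medium and LPS + MSU within a genotype, at 0.353 for Ncoa6-KO and 0.283 for Ncoa6-sufficient. Between the genotypes they were 0.042 to 0.193. The labels tie no number to a mouse, so the main fit did not take the numbers as pairs. Whether same-numbered libraries of a genotype share a mouse was not tested. The cause of these changes was not tested.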
